A study of Mus musculus with 12 samples.

Results

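Cadherins and protocadherins are cell-surface proteins that hold neighbouring cells together or let them recognise each other. Their rows in a count table of nuclear RNA from adult mouse cardiomyocytes were taken by symbol: every Cdh gene with a number and every Pcdh gene, leaving out Cdh2 (N-cadherin) and Cdh5 (VE-cadherin). This gave 91 of the 46983 rows. The study asked what YAP5SA does in the adult heart muscle cell. YAP is a co-activator of transcription that the Hippo pathway holds back by phosphorylation, and in 5SA the serines phosphorylated for this purpose are alanines. Control mice were adult Myh6-MCM mice given tamoxifen. YAP5SA mice were adult Yap5SA+/tg; Myh6-MCM mice given tamoxifen. Both groups therefore carried Myh6-MCM, in which the promoter of Myh6, a cardiac myosin heavy chain gene, drives a Cre that tamoxifen switches on, and both received the drug. Each group had 2 libraries, made from nuclei bound to beads through PCM1, a protein used to select cardiomyocyte nuclei. Whether the 2 libraries of a group stem from different animals is not in the labels. The p-values below therefore cover the spread among these 4 libraries, and that spread may be technical.

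Classical cadherins bind the same cadherin on the next cell through their extracellular repeats, with calcium, and bind catenins inside the cell, which link them to actin. In heart muscle this junction is part of the intercalated disc, where N-cadherin is the main classical cadherin. Type II cadherins pair with each other in a similar way, whereas protocadherins do not bind beta-catenin and are best known from neurons. The clustered alpha, beta and gamma protocadherin genes stand in tandem, and each alpha or gamma transcript joins 1 variable exon to constant exons shared along its cluster.

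Library totals ran from 7850661 to 15012122 counts, and members took 0.101% to 0.162% of them. A count of 0 allows up to 3 counts, or 0.202 to 0.397 CPM (counts scaled to a common library size by TMM), for counting error only. The control libraries differed from each other more than the YAP5SA libraries did (chi-square per gene of 61.9 against 15.2), and neither pair agreed within sampling noise. All 8 cardiomyocyte markers listed were present and summed to 32090 and 66238 CPM in control replicates 1 and 2 and to 22959 and 24417 CPM in YAP5SA replicates 1 and 2. None of the 8 passed the test, which is described below. Their sum was thus higher in control replicate 2 than in any other library. Markers of other cells were present as well. The 12 endothelial markers summed to 2496 and 1499 CPM in the controls and to 1065 and 986 CPM in YAP5SA. By the test 2 of 12 were lower (0.999% of all tested genes). The 10 macrophage markers summed to 764 and 548 CPM in the controls and to 1351 and 1624 CPM in YAP5SA, with 5 of 10 higher (3.12% of all tested genes). In bulk nuclear RNA, fewer nuclei of a type and less RNA per nucleus cannot be told apart.

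Of the 91 members, 83 had a count in at least 1 library and 8 had none (Cdh9, Cdh12, Pcdha1, Pcdha2, Pcdha3, Pcdha4, Pcdha7 and Pcdhga10). The filter on low counts passed 54 for testing, and 37 were not tested. Testing used the quasi-likelihood test of edgeR across all 17715 genes that passed, with a threshold of 0.05 on the Benjamini-Hochberg adjusted p. At this threshold 2 members were higher in YAP5SA, Cdh15 and Cdh8, against 3.12% of all tested genes. No member was lower, against 0.999% of all tested genes. At an unadjusted p under 0.05, 4 members were higher (12.7% of all tested genes) and 10 were lower (10.9%). The 2 YAP5SA libraries lay above both controls in 4 tested members (28.1% of all tested genes) and below both in 29 (28.3%). Fold changes were negative in 46 of the 54 (54.3% of all tested genes) and positive in 8. Their median log2 value was -0.58, beside -0.06 for all tested genes. Control replicate 2 exceeded control replicate 1 in 35 of the 54, against 47.3% of all tested genes. Of these 35, 20 were gamma protocadherins, and among the 18 tested non-clustered members 7 went this way. The gamma rows, whose genes share constant exons, cannot be taken as independent of each other. DESeq2, with an adjusted p for 60 members, called 3 higher, adding Cdh11 (5.72% of its tested genes were higher), and 0 lower (2.82%).

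**Figure D1:**
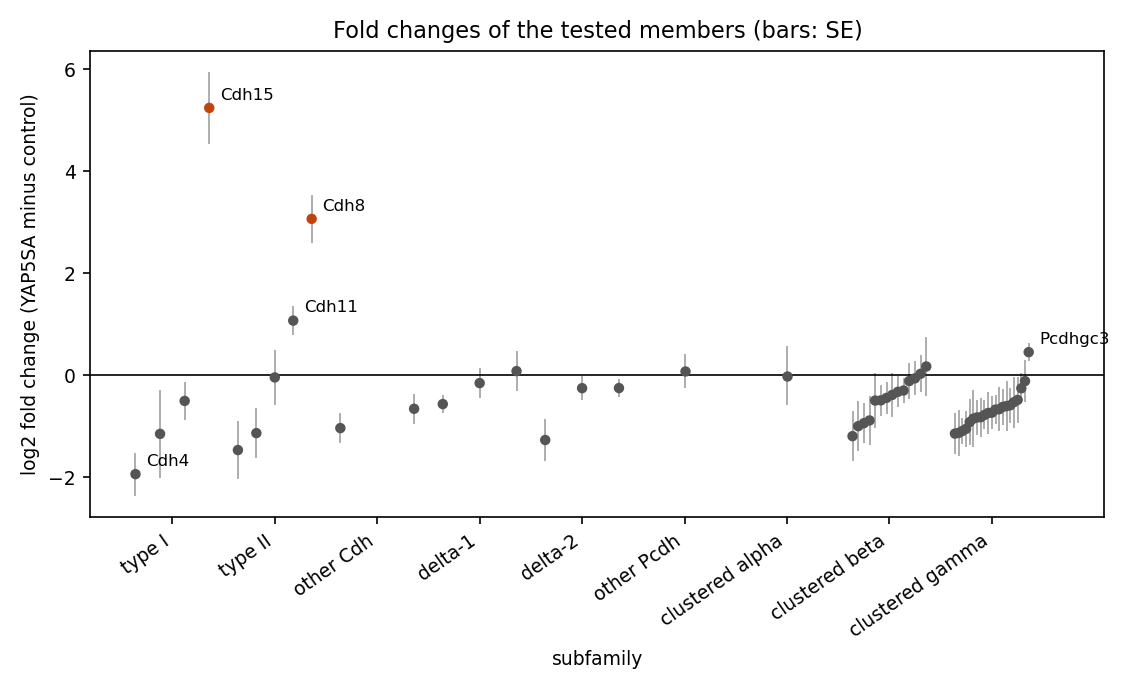
Log2 fold change (YAP5SA minus control, y axis) of the 54 tested members, grouped by subfamily on the x axis, with bars for the standard error. Cdh15 at 5.24 and Cdh8 at 3.06, in red, were past the threshold, and 46 of the points lie below 0.

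Because Cdh15 and Cdh8 were the members that rose, the 250 bases before their RefSeq start sites are shown (RefSeq, GRCm38.p6, the assembly also called mm10). Capitals mark the E-box CANNTG, the core letters read by muscle basic helix-loop-helix factors and by many others, which was chosen after the values were seen. The letters GGAATG, a core of the binding site of TEAD proteins, through which YAP reaches DNA, were also searched. The Cdh15 window lies at chr8:122848124-122848373 on the plus strand and the Cdh8 window at chr8:99416472-99416721 on the minus strand, both printed 5′ to 3′ along the gene.
Cdh15: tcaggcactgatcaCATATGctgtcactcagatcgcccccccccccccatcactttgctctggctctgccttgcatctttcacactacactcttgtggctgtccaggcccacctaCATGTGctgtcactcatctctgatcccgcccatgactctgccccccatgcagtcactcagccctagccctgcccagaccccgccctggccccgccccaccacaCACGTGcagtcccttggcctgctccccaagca
Cdh8: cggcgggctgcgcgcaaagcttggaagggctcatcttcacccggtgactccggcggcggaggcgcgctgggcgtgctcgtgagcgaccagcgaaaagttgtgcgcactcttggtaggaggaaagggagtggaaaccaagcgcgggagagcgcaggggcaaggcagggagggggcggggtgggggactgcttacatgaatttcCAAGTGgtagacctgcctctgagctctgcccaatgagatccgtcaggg

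The Cdh15 window held 3 E-boxes, starting 236, 135 and 32 bases before the RefSeq start site. The Cdh8 window held 1, 48 bases before its RefSeq start site. GENCODE M21 starts Cdh15 further upstream, at chr8:122847966, so the Cdh15 window lies inside the gene as annotated there. CANNTG reads the same on both strands and is frequent: 66.2% of all promoter windows of this length held at least 1. GGAATG was searched on both strands in the 300-base RefSeq windows, which run 50 bases past the start site, and a match of it can share at most 1 letter with an E-box. It stood in 14.7% of all 32851 windows and in 3 of the 25 windows that 22 members had (Cdh10, Cdh20 and Cdh9), and in neither the Cdh15 nor the Cdh8 window. Cdh10, Cdh20 and Cdh9 had at most 10 counts in any library. A match describes letters only.

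Among the classical type I cadherins (4 members, all tested), Cdh15 rose. Cdh15 encodes M-cadherin, known from satellite cells and myoblasts of skeletal muscle. It had 3 and 0 counts in control replicates 1 and 2 and 90 and 88 counts in YAP5SA replicates 1 and 2, which are 0.272, 0, 6.06 and 6.68 CPM. Both YAP5SA libraries stood far above both controls, which were at or under the floor that a count of 0 allows. The ratio of summed counts, scaled to library size, was 39.4 (95% counting interval 13.3 to 193), and the fitted log2 fold change of 5.24 (SE 0.71 and adjusted p = 0.0321, edgeR) depends on the prior count. All 3 control counts are in replicate 1. Without YAP5SA replicate 1 the adjusted p was 0.0766, and without YAP5SA replicate 2 it was 0.193. Cdh15 occupies chr8:122847966-122867397 on the plus strand (GENCODE M21, GRCm38), and no exon of another gene overlaps its exons there. The nearest tested gene on each side did not pass the test. Acsf3, 30.1 kb to the left, had a log2 fold change of -0.36 (adjusted p = 0.376, edgeR). Ankrd11, 16.4 kb to the right, had 0.11 (adjusted p = 0.703, edgeR).

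Markers of skeletal muscle precursors were looked at beside Cdh15, in a list of 8 genes chosen after its value was seen. Their sum was 2.54 and 0.925 CPM in the controls and 1.75 and 2.05 CPM in YAP5SA, and none of the 8 had enough counts to be tested. Pax7, the satellite cell factor, had 4, 0, 1 and 0 counts in control replicates 1 and 2 and YAP5SA replicates 1 and 2. Myf5 had 0 counts in all 4 libraries, and Myod1, the myoblast factor, had 4 counts in control replicate 1 and 0 in the other 3 libraries. Myog, the factor of myoblast differentiation, had 0 counts in both controls and 5 and 10 in YAP5SA. Chrna1, a subunit of the muscle acetylcholine receptor, had 2, 1, 10 and 10 counts. In YAP5SA, where Cdh15 was high, Pax7, Myf5 and Myod1 thus had 0 or 1 counts in each library. Myog and Chrna1 had low counts that were higher in YAP5SA. Chrng went the other way, with 12 and 5 counts in the controls and 7 and 3 in YAP5SA. These are 1.09, 0.661, 0.472 and 0.228 CPM. Myf6, with 3, 1, 0 and 2 counts, and Musk, with 3, 0, 3 and 2 counts, overlapped between groups. All 8 genes together had 28 and 7 counts in the controls and 26 and 27 in YAP5SA. The part of skeletal muscle precursor RNA in the Cdh15 value was not tested.

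The other type I members had negative fold changes and did not pass the test. Cdh4, which encodes R-cadherin and is at chr2:179442431-179899373, had 2.99 and 2.25 CPM in the controls and 0.674 and 0.683 CPM in YAP5SA. Both YAP5SA libraries were below both controls, with a log2 fold change of -1.94 (SE 0.42 and adjusted p = 0.0685). Cdh1, the epithelial E-cadherin, had 11.2 and 1.45 CPM in the controls and 2.43 and 3.42 CPM in YAP5SA. One library set its mean, since control replicate 1 held 124 counts and control replicate 2 held 11. Its log2 fold change was -1.15 (SE 0.86 and adjusted p = 0.459) and turned to 1.0 without control replicate 1. Cdh3, or P-cadherin, was lower in both YAP5SA libraries (2.90 and 2.73 CPM) than in the controls (4.89 and 3.04 CPM), with an adjusted p of 0.458. For comparison, Cdh2, the classical cadherin of the intercalated disc, had 465 and 843 CPM in the controls and 631 and 614 CPM in YAP5SA, with a log2 fold change of -0.07 (SE 0.33 and adjusted p = 0.920).

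Of the 12 type II cadherins, 5 were tested and Cdh8 rose. Cdh8 is known from the nervous system, where it contributes to the pairing of neurons. Its counts were 4 and 3 in the controls and 42 and 48 in YAP5SA, which are 0.362, 0.397, 2.83 and 3.65 CPM. The control libraries were at the floor of 3 counts or 1 above it, and the YAP5SA libraries lay above both. The log2 fold change was 3.06 (SE 0.47 and adjusted p = 0.0380, edgeR), a fitted 8.37-fold difference. Without YAP5SA replicate 1 the adjusted p was 0.218, and without YAP5SA replicate 2 it was 0.465. On the minus strand of chr8:99024471-99416471, Cdh8 shares exon sequence with Gm15679 on the other strand, but that gene had 1 count in all 4 libraries together. Neuron markers (8 genes, 3 tested) summed to 12.7 and 7.40 CPM in the controls and 13.4 and 12.6 CPM in YAP5SA, and none passed the test. Dbh, the enzyme that makes noradrenaline in sympathetic neurons, came closest, with 14, 6, 79 and 59 counts and a log2 fold change of 2.21 (SE 0.40 and adjusted p = 0.0501). Like Cdh8, it was higher in both YAP5SA libraries than in either control. Of the other tested neuron markers, Tubb3 had a log2 fold change of 0.19 and Stmn2 one of -0.47. Snap25, Rbfox3, Prph, Th and Syt1 had 16 counts or fewer in every library and were not tested. The part of neuronal RNA in the Cdh8 value was not tested.

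Cdh11, the nearest tested gene to the right of Cdh8 at a distance of 3.22 Mb, had the highest CPM of the type II members. It lies at chr8:102632095-102785642 on the minus strand, and genes that were not tested were not considered as neighbours. It encodes OB-cadherin, known from osteoblasts and fibroblasts. CPM was 8.33 and 13.2 in the controls and 20.5 and 24.5 in YAP5SA. The groups did not overlap, and the log2 fold change was 1.07 (SE 0.28), which missed the threshold in edgeR (adjusted p = 0.102) and passed it in DESeq2 (adjusted p = 0.0460). The log2 fold change of Cdh11 was 0.77 without control replicate 1 and 1.47 without control replicate 2. The 12 fibroblast markers summed to 7967 and 6361 CPM in the controls and 6615 and 8104 CPM in YAP5SA. Only Lum, an extracellular matrix proteoglycan, was higher by the test among them (3.12% of all tested genes). Its log2 fold change was 1.16 (SE 0.18 and adjusted p = 0.0394, edgeR). The part of fibroblast RNA in the Cdh11 value was not tested. To the left of Cdh8 the nearest tested gene was Got2, 3.14 Mb away, with a log2 fold change of -0.43 (adjusted p = 0.235, edgeR).

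The remaining type II members tested were Cdh19, Cdh6 and Cdh24. Cdh19, a cadherin of Schwann cells, had 4.71 and 2.11 CPM in the controls and 1.55 and 1.59 CPM in YAP5SA, with a log2 fold change of -1.14 (SE 0.49 and adjusted p = 0.236). The 8 Schwann cell markers summed to 69.6 and 30.0 CPM in the controls and 45.9 and 35.6 CPM in YAP5SA. Control replicate 1 was the highest library for both Cdh19 and this sum. Control replicate 2 was the lowest library for the sum but stood above both YAP5SA libraries for Cdh19. The part of Schwann cell RNA in the Cdh19 value was not tested. The Cdh19 value was -0.42 without control replicate 1 and -1.54 without control replicate 2, on the log2 scale. Cdh6, known from kidney, had 1.72 and 1.06 CPM in the controls and 0.337 and 0.683 CPM in YAP5SA (log2 fold change -1.47, SE 0.57, adjusted p = 0.201). Cdh24 overlapped between groups at 1.90, 0.793, 1.55 and 1.14 CPM. The 7 type II members not tested had at most 10 counts in any library.

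Chromosome 8 carried 7 of the members, in the order Cdh8, Cdh11, Cdh16, Cdh3, Cdh1, Cdh13 and Cdh15, with Cdh5 between Cdh11 and Cdh16. The members with the 3 highest fold changes of all 54 were on it, Cdh15, Cdh8 and Cdh11. The others on it had negative fold changes or, for Cdh16, too few counts for a test. Cdh8 and Cdh15, the members that rose, stand at the ends of this order, with a gap of 3.52 Mb between Cdh13 and Cdh15 and of 11.6 Mb between Cdh1 and Cdh13.

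Cdh13 had the highest CPM of the remaining Cdh genes (5 members, 2 tested). Its product, T-cadherin, has no transmembrane or cytoplasmic part, is held by a lipid anchor and binds adiponectin. CPM was 100.5 and 179 in the controls and 87.9 and 89.1 in YAP5SA. Both YAP5SA libraries were below both controls, by a log2 fold change of -0.66 (SE 0.29) that did not pass (adjusted p = 0.250). The size of this value turned on the control library, at -0.15 without control replicate 2 and -1.01 without control replicate 1. Cdh23, a component of the tip links of hair cells, had 7.79 and 10.2 CPM in the controls and 4.45 and 4.25 CPM in YAP5SA (log2 fold change -1.04, SE 0.29, adjusted p = 0.111). Here too the groups did not overlap. Cdh16, Cdh17 and Cdh26 had 15 counts or fewer in every library.

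**Figure D2:**
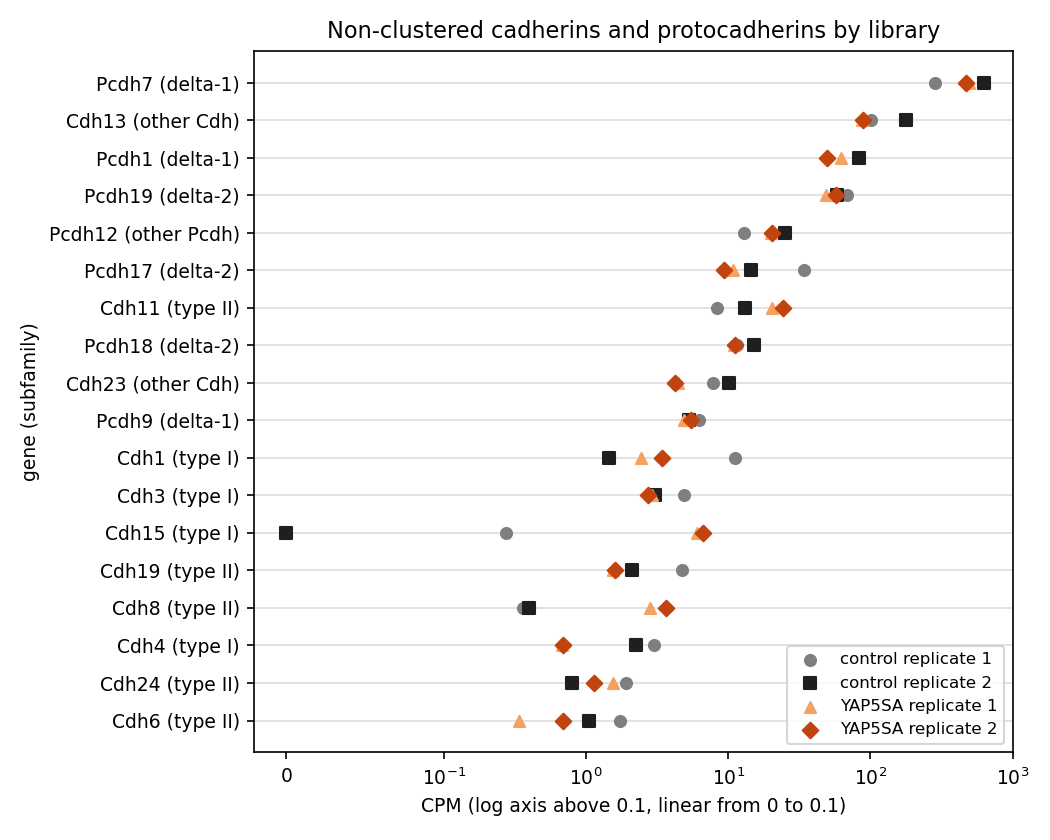
CPM of the 18 tested non-clustered members (x axis, log scale above 0.1 CPM, linear below) in each of the 4 libraries, ordered by mean. Cdh15 and Cdh8 show the widest gap between the YAP5SA libraries (orange and red) and the controls (grey and black), and Pcdh7 has the highest CPM at 286 to 627 CPM.

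Delta protocadherins are the non-clustered ones with conserved cytoplasmic motifs. Pcdh7, of the delta-1 group, had the highest CPM of all members, at 286 and 627 CPM in the controls and 492 and 471 CPM in YAP5SA. The YAP5SA libraries lay between the controls, and the log2 fold change was 0.08 (SE 0.39 and adjusted p = 0.924). It turned to -0.37 without control replicate 1 and was 0.79 without control replicate 2. Pcdh7 (chr5:57717967-58133230, plus strand) shares exon sequence with 4932441J04Rik on the other strand, which had 12.7 and 13.1 CPM in the controls and 16.6 and 17.2 CPM in YAP5SA. Reads of both cannot be told apart without a stated strand setting. Per kb of annotated exon, Pcdh7 was at 43.1 ± 22.7 CPM per kb (SD, n = 2) in the controls and 45.4 ± 1.40 (SD, n = 2) in YAP5SA. The next members on that scale were Cdh13, at 12.5 ± 4.96 and 7.88 ± 0.08 CPM per kb, and Pcdh1, at 9.46 ± 0.05 and 6.38 ± 1.02 CPM per kb. By the same measure, Cdh15 in YAP5SA was at 1.96 ± 0.13 CPM per kb, Cdh11 at 2.52 ± 0.32 and Cdh8 at 0.418 ± 0.074.

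Pcdh1 and Pcdh9 are the other tested delta-1 members. Pcdh1, known from airway epithelium, had 83.5 and 82.9 CPM in the controls and 62.5 and 49.7 CPM in YAP5SA. Its controls were close together and both YAP5SA libraries lay below them, with a log2 fold change of -0.57 (SE 0.18 and adjusted p = 0.144). Pcdh9 was at 6.25 and 5.29 CPM in the controls and 4.92 and 5.47 CPM in YAP5SA, with overlapping groups (adjusted p = 0.782).

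In the delta-2 group 3 of 5 members were tested and none passed. Pcdh19, the highest of them in CPM, had 68.5 and 58.4 CPM in the controls and 48.8 and 57.7 CPM in YAP5SA. Exon sequence of Pcdh19 is shared with Gm26851 on the other strand, which had 1 count in all 4 libraries. The nearest libraries of the groups differed little, and the log2 fold change was -0.25 (SE 0.18 and adjusted p = 0.446). Pcdh17 had 34.0 and 14.4 CPM in the controls and 10.8 and 9.34 CPM in YAP5SA (log2 fold change -1.27, SE 0.42, adjusted p = 0.153), a value that was -0.51 without control replicate 1 and -1.72 without control replicate 2. Control replicate 1 was the highest library for Pcdh17, as it was for the summed endothelial markers given above, and the part of endothelial RNA in its value was not tested. Pcdh18 was at 11.5, 15.2, 11.1 and 11.2 CPM, with an adjusted p of 0.554. Pcdh12, a protocadherin of endothelial cells outside the delta groups, had 13.0 and 25.1 CPM in the controls and 19.9 and 20.3 CPM in YAP5SA, with a log2 fold change of 0.09 (SE 0.33 and adjusted p = 0.904). Unlike the endothelial markers as a sum, Pcdh12 was lowest in control replicate 1, and its log2 fold change was -0.31 without that library.

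The clustered protocadherins made up 58 of the 91 members, and 36 of them were tested. None passed the threshold in either direction. Fold changes were negative in 33 of the 36 (54.3% of all tested genes), with a median log2 fold change of -0.62. Exons of 35 of the 55 clustered rows matched to GENCODE overlap those of another gene on the same strand: 12 alpha and 21 gamma rows, whose genes share constant exons, and 2 beta rows, Pcdhb21 and Pcdhb22, which overlap each other. The way the authors' counting assigned such shared reads is not stated in the labels, so these single rows are uncertain. For the same reason they cannot be taken as independent of each other. Rows also bear the suffix _2 (Pcdha11_2 and Pcdhga8_2), and these matched no annotated gene. In the order of the deposited rows, Pcdhga8_2 stands between Pcdhgb4 and Pcdhgb5, and Pcdhga8 stands between Pcdhgc3 and Pcdhgc5. Pcdhgc4, annotated in the gamma cluster, has no row of its own. GENCODE starts the Pcdhga8 gene at chr18:37725706, between the starts of Pcdhgb4 (37720369) and Pcdhgb5 (37731009). The row order thus puts Pcdhga8_2, and not the row named Pcdhga8, at this gene. Symbol and order disagree, so the row that holds the counts of the Pcdhga8 gene is uncertain. The gamma types below go by symbol, and the row named Pcdhga8 may not be an A type.

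The alpha cluster had few counts. Its 14 rows summed to 2.45 and 0.925 CPM in the controls and 1.08 and 1.82 CPM in YAP5SA, and 5 of them had no count. Pcdhac2, a C-type isoform near the constant exons, had the highest CPM and was the 1 row tested, with 19, 5, 14 and 20 counts in control replicates 1 and 2 and YAP5SA replicates 1 and 2. Its groups overlapped, with a log2 fold change of -0.01 (SE 0.58 and adjusted p = 0.993) that turned to 0.88 without control replicate 1.

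The beta genes each have a single coding exon and no constant part shared along the cluster. All 22 had a count in some library and 14 were tested. They summed to 52.3 and 55.6 CPM in the controls and 40.6 and 42.3 CPM in YAP5SA, so both YAP5SA sums were below both control sums. Pcdhb17, the highest in CPM, had 8.42 and 8.06 CPM in the controls and 6.40 and 6.99 CPM in YAP5SA (log2 fold change -0.30, SE 0.25, adjusted p = 0.507). Pcdhb16 had 6.97 and 6.61 CPM in the controls and 4.11 and 5.54 CPM in YAP5SA, with an adjusted p of 0.374. Pcdhb14 was at 4.98, 6.34, 4.65 and 4.33 CPM, with an adjusted p of 0.551. In each of these 3 genes the YAP5SA libraries lay below the controls by small amounts. Across the 14, fold changes were negative in 12 (54.3% of all tested genes) and YAP5SA lay below both controls in 8 (28.3% of all tested genes). No unadjusted p was under 0.05.

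The gamma cluster held the most counts of the 3 clusters, and 21 of its 22 rows were tested. By symbol, the A and B types were 20 rows with variable exons along the cluster. They summed to 254 and 544 CPM in control replicates 1 and 2 and to 252 and 230 CPM in YAP5SA replicates 1 and 2. Control replicate 1 was thus close to the YAP5SA libraries, and control replicate 2 stood far above the other 3. All 19 tested rows had a negative fold change (54.3% of all tested genes), with a median log2 value of -0.74. Because of the shared constant exons, these rows may hold some of the same reads and are not separate observations. In all 19, control replicate 2 exceeded control replicate 1 (47.3% of all tested genes). Leaving out control replicate 2 brought the log2 fold change of the sum to -0.08, and leaving out control replicate 1 brought it to -1.17. Cardiomyocyte markers, given above, were also highest in control replicate 2, and their part in the gamma values was not tested.

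Among single gamma rows, Pcdhgb5 had the highest CPM, at 26.3 and 64.8 CPM in the controls and 31.0 and 26 CPM in YAP5SA. Its groups overlapped, because control replicate 1 lay between the YAP5SA libraries. Pcdhgb4 had 24.4 and 49.2 CPM in the controls and 24.3 and 24.3 CPM in YAP5SA. Pcdhga9 had 14.5 and 42.3 CPM and then 19.5 and 17.5 CPM, and Pcdhgb6 had 13.3 and 40.0 CPM and then 18.1 and 18.6 CPM. In these, and in Pcdhga7 (20.01, 32.9, 17.3 and 15.7 CPM) and Pcdhgb8 (13.8, 36.1, 13.9 and 12.2 CPM), control replicate 2 stood apart. Pcdhga12 (12.3, 32.0, 16 and 15.3 CPM) and Pcdhga11 (5.34, 17.7, 6.0 and 6.61 CPM), near the end of the A and B rows, did the same. Without control replicate 2 the fold changes of Pcdhgb4, Pcdhgb5, Pcdhga9, Pcdhgb6, Pcdhga11, Pcdhga12 and Pcdhga8 turned positive, with log2 values from 0.0335 (Pcdhgb4) to 0.50 (Pcdhgb6).

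At an unadjusted p under 0.05, 5 of the 19 tested gamma A and B rows were lower, beside 10.9% of all tested genes. They were Pcdhga1, Pcdhga2, Pcdhga3, Pcdhga4 and Pcdhga6. Pcdhga3 had 13.9 and 19.7 CPM in the controls and 8.15 and 7.52 CPM in YAP5SA, with no overlap and the smallest adjusted p of the cluster (0.0809, log2 fold change -1.10, SE 0.26). Pcdhga1, the first row, had 6.16 and 7.53 CPM in the controls and 2.63 and 3.95 CPM in YAP5SA (log2 fold change -1.05, SE 0.35, adjusted p = 0.151). Pcdhga2 had 14.3 and 23.0 CPM and then 11.1 and 10.5 CPM, with an adjusted p of 0.182. In these 3 rows the YAP5SA libraries lay below control replicate 1, the lower control. Pcdhga4 (5.43, 10.3, 3.84 and 3.19 CPM) and Pcdhga6 (13.9, 34.0, 12.1 and 9.57 CPM) were likewise lower in both YAP5SA libraries than in either control. The remaining A and B rows over 5 CPM (Pcdhgb1, Pcdhgb2, Pcdhga5, Pcdhga8, Pcdhga8_2 and Pcdhgb7) had log2 fold changes from -0.83 to -0.26 and adjusted p-values of 0.220 to 0.642. Pcdhga10 had 0 counts in all 4 libraries, while its tested neighbours in the cluster had 39 counts or more in each.

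Of the C types by symbol, which stand last in the gamma cluster, Pcdhgc3 went the other way. Its CPM was 24.6 and 22.5 in the controls and 30.7 and 33.8 in YAP5SA. Both YAP5SA libraries were above both controls, with a log2 fold change of 0.45 (SE 0.17), an unadjusted p of 0.0438 and an adjusted p of 0.198. It was the 1 gamma row whose control replicate 2 was below control replicate 1. Pcdhgc5 had 7.06 and 16.3 CPM in the controls and 10.6 and 10.7 CPM in YAP5SA, with overlapping groups and an adjusted p of 0.893. Without control replicate 2 its log2 fold change turned to 0.63.

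**Figure D3:**
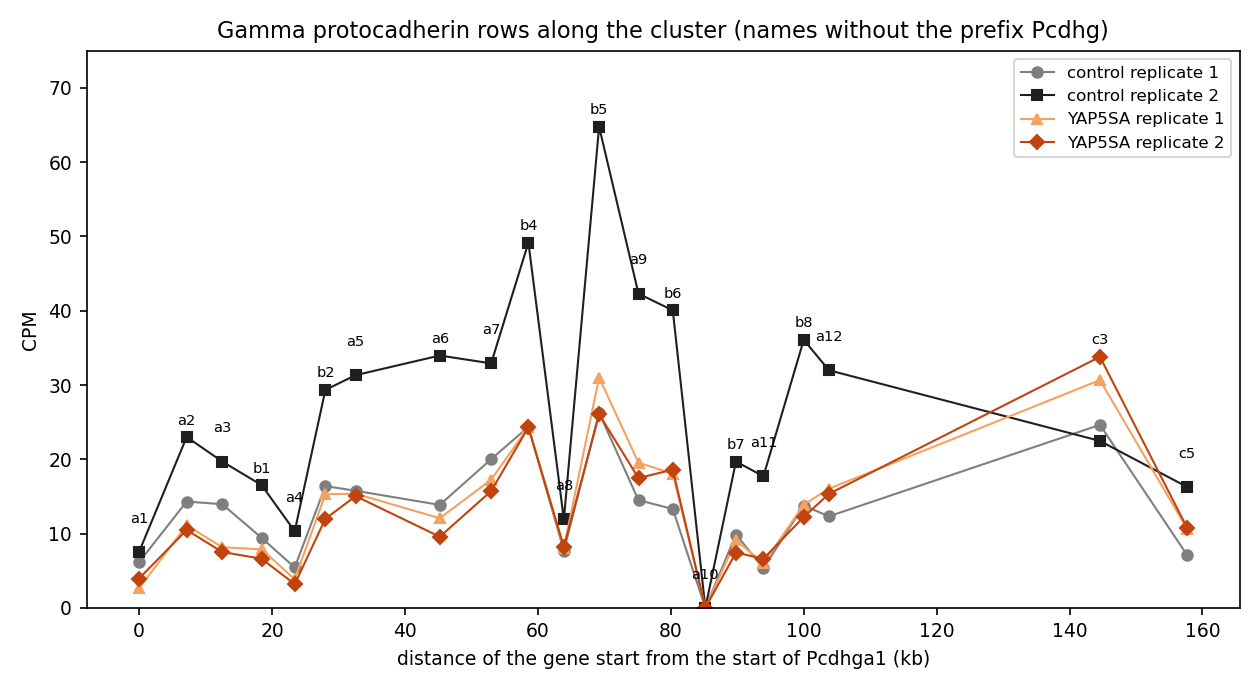
CPM (y axis) of the gamma protocadherin rows in each library against the distance of each gene's start from the start of Pcdhga1 in kb (x axis). Pcdhga8_2, which matched no annotated gene, is left out. The row named Pcdhga8 is drawn at the annotated Pcdhga8 gene, although the order of the deposited rows puts Pcdhga8_2 there. Control replicate 2 (black squares) runs above the other 3 libraries at every A and B row with counts and below the YAP5SA libraries at Pcdhgc3, where they reach 30.7 and 33.8 CPM.

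Calls among the members depended on which control was used. With control replicate 1 left out, 4 members were higher (18.8% of all tested genes) and 25 lower (17.4%). With control replicate 2 left out, 8 were higher (19.7%) and 11 lower (18.6%). The spread in these fits comes from the YAP5SA pair alone, and the lone control library is assumed to vary like it. Cdh15, Cdh8, Cdh11 and Pcdhgc3 were called higher in both. Without YAP5SA replicate 1 or without YAP5SA replicate 2 no member was called in either direction, and 0.362% and 0.143% of all tested genes were higher.

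Proteins that work with cadherins were described from a list of 40 genes: catenins and other cytoplasmic partners, desmosomal cadherins, Fat, Dachsous, Celsr and other relatives. Of these 27 were tested, 3 were higher and none was lower (3.12% and 0.999% of all tested genes), and the median log2 fold change was 0.06. At an unadjusted p under 0.05, 8 were higher and 6 lower, beside 12.7% and 10.9% of all tested genes. DESeq2 called 6 higher and 3 lower, beside 5.72% and 2.82% of its tested genes. Plekha7, a protein of the adherens junction that binds p120 catenin (chr7:116123485-116308376, minus strand), had 13.0 and 17.8 CPM in the controls and 93.7 and 94.0 CPM in YAP5SA. The groups were far apart relative to their spread, with a log2 fold change of 2.61 (SE 0.22 and adjusted p = 0.0165, edgeR). Without YAP5SA replicate 2 the adjusted p of Plekha7 was 0.0676.

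Ctnnd2 encodes delta-catenin, a p120 relative best known from neurons that binds the cytoplasmic tail of classical cadherins (chr15:30172593-31029341, plus strand). It had 0.272 and 1.45 CPM in the controls and 29.3 and 27.0 CPM in YAP5SA. From near the floor in control replicate 1, it was at a similar level in both YAP5SA libraries, with a log2 fold change of 5.15 (SE 0.57 and adjusted p = 0.0276, edgeR), and its adjusted p was 0.0655 without YAP5SA replicate 2. The size of the Ctnnd2 value turned on the control library, with log2 fold changes of 4.27 without control replicate 1 and 6.68 without control replicate 2. Its relative Ctnnd1, p120 catenin itself, had 44.7 and 70.2 CPM in the controls and 59.5 and 49.4 CPM in YAP5SA, with a log2 fold change of -0.08 (SE 0.26 and adjusted p = 0.891). Dchs2, a large cadherin related to the Fat ligand Dachsous (chr3:83127948-83357209, plus strand), had 2.26 and 2.25 CPM in the controls and 8.09 and 11 CPM in YAP5SA. Its controls were close together and both YAP5SA libraries higher, with a log2 fold change of 2.08 (SE 0.32 and adjusted p = 0.0394, edgeR). An exon of Gm10710 overlaps Dchs2 on the other strand. Without YAP5SA replicate 1 the adjusted p of Dchs2 was 0.157, and without YAP5SA replicate 2 it was 0.423.

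**Figure D4:**
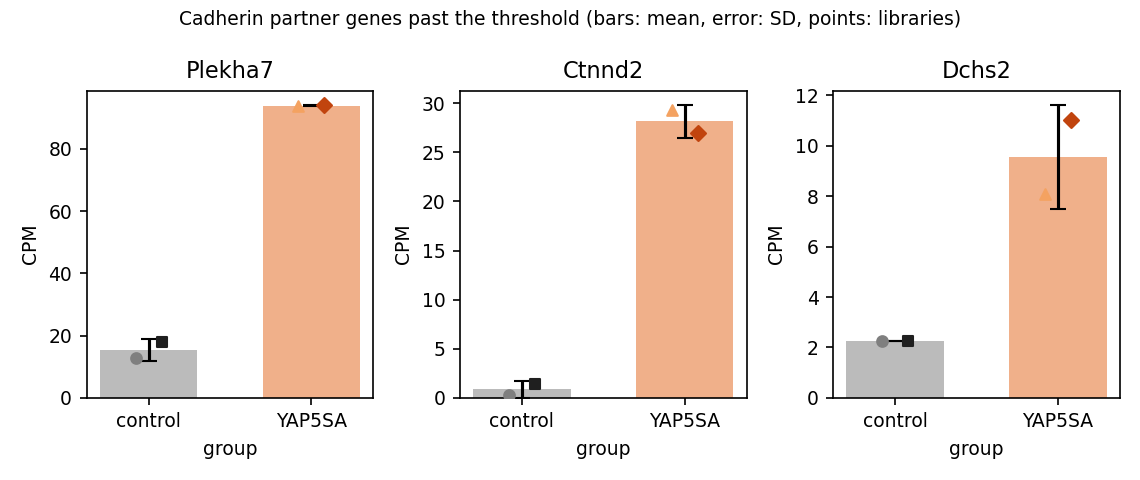
CPM of Plekha7, Ctnnd2 and Dchs2 by group, with bars for the mean, error bars for the SD (n = 2) and points for libraries. In all 3 both YAP5SA libraries lie above both controls, at 93.7 and 94.0 CPM for Plekha7.

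The partners with the highest CPM were Fat1 and Ctnna1. Fat1, a giant cadherin that acts on cell polarity and Hippo signalling, had 446 and 743 CPM in the controls and 1051 and 1138 CPM in YAP5SA. The groups did not overlap, and the log2 fold change of 0.88 (SE 0.32) missed the threshold in edgeR (adjusted p = 0.176) and passed it in DESeq2 (adjusted p = 0.0495). Ctnna1, alpha-catenin, which links the cadherin complex to actin, had 567 and 554 CPM in the controls and 702 and 673 CPM in YAP5SA (log2 fold change 0.29, SE 0.20, adjusted p = 0.429). Beta-catenin, encoded by Ctnnb1, overlapped between groups at 381, 324, 324 and 347 CPM.

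Regulators of the protocadherin clusters formed a list of 19 genes, all tested: CTCF and cohesin with its loader and release factors, DNA methyltransferases, SMCHD1 and others that act on these promoters. None passed the threshold, where 3.12% of all tested genes were higher and 0.999% lower. At an unadjusted p under 0.05, 2 were higher and none lower, beside 12.7% and 10.9% of all tested genes. The median log2 fold change of the 19 was 0.18. Nipbl, the cohesin loader, had the highest CPM of them, at 207 and 205 CPM in the controls and 199 and 201 CPM in YAP5SA. Wapl, which releases cohesin from DNA, had 170 and 146 CPM and then 148 and 141 CPM. Their log2 fold changes were -0.04 (SE 0.16 and adjusted p = 0.904) and -0.13 (SE 0.17 and adjusted p = 0.675). Rest, a repressor of neuronal genes, had the control libraries furthest apart, at 92.2 and 48.1 CPM, with 102 and 99.2 CPM in YAP5SA (log2 fold change 0.52, SE 0.32 and adjusted p = 0.379). Ctcf was at 54.2 and 56.8 CPM in the controls and 58.0 and 58.2 CPM in YAP5SA.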

How the data were processed

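For each of the 4 nuclear RNA libraries, the deposited table gave unnormalized counts by gene symbol. Per the labels' protocols, the authors made these counts from stranded, ribosome-depleted, paired-end libraries mapped with STAR to mm10, with DESeq2 named in the submitters' processing notes. The sources used here give neither the counting program nor the strand setting, annotation or versions. The ATAC-seq and 4C-seq samples were not analysed here. Counts were filtered with filterByExpr (minimum count 10), scaled by TMM and tested with the quasi-likelihood test of edgeR 4.0.16 (R 4.3.3) across 17715 genes, 2 YAP5SA against 2 control libraries, with Benjamini-Hochberg adjustment. Log2 fold changes are YAP5SA minus control. The SE was taken as the size of the log2 fold change over the root of the F statistic. CPM use TMM-scaled totals. The pipeline was tested on simulated data. Changes were drawn only in genes with higher mean counts than Cdh15 and Cdh8, with the same spread for all genes and libraries. The simulation therefore does not cover those members or controls that differ as these did.

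Members, lists, rules and tests were chosen with earlier results of these data known. Named were members past the threshold, members with a mean of at least 5 CPM, the most abundant member of each subfamily, and from the other lists the genes past the threshold and the 2 most abundant. Genes named beside these were chosen after their values were seen. Annotation came from GENCODE M21 (88 members matched by symbol, 3 did not) and promoter windows from RefSeq GRCm38.p6 (22 members matched). Alternatives were RLE size factors, library totals, DESeq2 1.42.0, limma-voom (limma 3.58.1), no filter, at least 1 CPM in all 4 libraries, a replicate block, and each library left out.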

Additional observations from a re-analysis of the deposited data

How the results depend on the processing

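Higher members numbered 2 and became 0 under the filter of at least 1 CPM in all libraries, which left out Cdh15 and Cdh8 before testing, 1 with the replicate block, and 0 to 8 with 1 library left out. Lower members numbered 0 and became 9 of 83 with no filter on low counts, where 5.53% of all genes were lower, and 0 to 25 with 1 library left out. Both partner and member counts stand beside 5.65% of all genes higher with no filter, and 5.72% higher and 2.82% lower in DESeq2. Higher partner genes numbered 3 and became 6 in DESeq2 and 7 with no filter, and their number also moved with 1 library left out. Lower partner genes numbered 0 and became 1 with library totals alone (1.2% of all tested genes) and 2 with the replicate block (0.632%). They became 3 in DESeq2 and 7 with no filter (5.53%), and their number also moved with 1 library left out. Higher cluster regulators numbered 0 and became 1 with no filter (5.65% of all genes), and their number also moved with 1 library left out. Lower cluster regulators stayed at 0 throughout. The cause was not tested. RLE size factors changed no call of a named gene.

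Same-numbered replicates did not deviate together (correlation -0.0917). With 2 libraries per group, this value cannot decide whether the number is a pairing. With the block, Cdh8 (adjusted p = 0.0583) and Dchs2 (0.0573) were no longer called, and it left the calls of the other named genes as they were.

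With 1 library left out, log2 fold changes crossed 0 for Pcdh7 (-0.37 to 0.79), Pcdhgb4 (-1.01 to 0.0335), Pcdhgb5 (-1.17 to 0.16), Pcdhga9 (-1.18 to 0.39), Pcdhgb6 (-1.12 to 0.50), Pcdhga11 (-1.48 to 0.27), Pcdhga12 (-1.02 to 0.39), Pcdhga8 (-0.54 to 0.12), Pcdhgc5 (-0.60 to 0.63), Pcdh12 (-0.31 to 0.67), Cdh1 (-1.91 to 1.0) and Pcdhac2 (-0.46 to 0.88). None of these passed the main test. Pcdhgc5 was at 0.0660 in limma-voom. Pcdhac2 was at 0.0082 with library totals, 0.0775 in DESeq2, 0.0400 in limma-voom, 0.0462 with no filter and 0.0405 with the block. Nipbl was at 0.0075 in DESeq2 and 0.0021 with no filter. The low counts of Cdh15 and Cdh8 in the controls, at or near the floor of 3 counts, limit the size of their fold changes.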

Other observations

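A set of relatives of the cadherins, named after their values were seen, missed the threshold by little in both directions. Fat3, an atypical cadherin of the Fat group, had 1.09 and 1.72 CPM in the controls and 5.19 and 6.0 CPM in YAP5SA, with a log2 fold change of 2.02 (SE 0.39 and adjusted p = 0.0546 in edgeR and 0.0119 in DESeq2). Celsr1, a planar polarity cadherin, had 24.3 and 23.0 CPM in the controls and 12.6 and 10.8 CPM in YAP5SA, with a log2 fold change of -1.01 (SE 0.20 and adjusted p = 0.0554 in edgeR and 0.0380 in DESeq2). Fat2 had 5.71 and 1.59 CPM in the controls and 0.202 and 0.152 CPM in YAP5SA, with a log2 fold change of -4.31 (SE 0.84 and adjusted p = 0.0562 in edgeR and 0.0014 in DESeq2). Its control libraries differed from each other, with control replicate 1 the higher.

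Some members were counted in control replicate 1 alone among the controls. Pcdh10, Pcdh20 and Cdh16 had 26, 20 and 15 counts in control replicate 1, 0 counts in control replicate 2, and 2 to 8 counts in each YAP5SA library. With 15 counts as the minimum, a value chosen after these counts were seen, 3 of the 91 members and 29 of all 46983 rows had at least that many in control replicate 1 and 0 in control replicate 2. No row of the table showed the reverse. Control replicate 2 was the shallowest library, with 7850661 counts against 10927396. The part of depth in these 0 counts was not tested.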
